A study of Mus musculus with 12 samples.

Results

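Bone marrow-derived macrophages (BMDMs) lacking Acod1 were compared with wild-type (WT) BMDMs in the absence of any stimulus. Itaconate is made in mitochondria from cis-aconitate, an intermediate of the tricarboxylic acid (TCA) cycle, by aconitate decarboxylase, the product of Acod1. In resting macrophages the gene is barely transcribed, and inflammatory stimuli such as lipopolysaccharide or particulate matter (PM) switch it on. Itaconate inhibits succinate dehydrogenase and can modify KEAP1, the protein that holds the antioxidant transcription factor NRF2 in check. A comparison before any stimulus therefore gives the differences that the 2 kinds of cells bring into an experiment with PM.

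The series held 12 RNA-seq libraries in 6 groups of 2, and the 2 WT and 2 Acod1-/- libraries treated with vehicle made up the comparison. Per the labels, the WT cells came from C57BL/6 mice and the Acod1-/- cells from the strain C57BL/6NJ-Acod1em1(IMPC)J/J, and marrow cells of both were grown with M-CSF. The methods of the study give male mice for both strains and name C57BL/6NJ as the WT strain, whereas the labels name no WT substrain. No source says whether the 2 libraries of a group came from separate mice or cultures, so the p-values measure the spread between these libraries, which may be technical. The other 8 libraries came from the same 2 genotypes given PM at 20 µg/cm2 for 24 hours. The PM was given alone or after 2 hours with 0.25 mM of the cell-permeable ester 4-octyl itaconate (OI). None of these libraries was in the vehicle comparison, and they were used to see whether its differences recurred. Whether they came from other mice than the vehicle libraries is not stated, so a recurrence cannot be taken as replication in separate animals.

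The 4 vehicle libraries held between 34044022 and 36817898 counted reads, with mitochondrial transcripts at 1.64% to 1.79% of counts. Of 48795 genes listed, 22152 had at least 1 count in these libraries and 10925 passed the filter of more than 1.5 CPM, the counts of a gene scaled to a common library size, in at least 2 of the 4. Replicates were close. The log2 CPM of the 2 WT libraries differed with an SD of 0.12 over the 10925 genes, and those of the 2 Acod1-/- libraries with an SD of 0.11, whereas the 4 pairs of unlike genotype gave SDs of 0.22. A difference of 2-fold or more was seen for 1 gene between the WT replicates and for 0 genes between the Acod1-/- replicates, against 53 to 58 genes between libraries of unlike genotype. Replicates still varied more than counting alone allows, with a chi-square of 3.0 per degree of freedom for the WT libraries and 2.61 for the Acod1-/- libraries. In bulk RNA, fewer cells of a type and less RNA per cell cannot be told apart.

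The cells had the transcripts of macrophages. All 24 genes of the macrophage identity list passed the filter, and their summed level was 32318 and 32062 CPM in WT against 30865 and 31229 CPM in Acod1-/- libraries. Summed levels here are CPM of total counts alone, without the further scaling (TMM) applied to single genes. Of the markers of other cell types, 3 of 15 for neutrophils and granulocytes, 2 of 13 for mast cells, basophils and eosinophils, 4 of 12 for dendritic cells and 2 of 13 for lymphocytes passed the filter. Ly6g, Cpa3, Mcpt8, Cd3e, Flt3 and Hba-a1 had 0 counts in all 4 libraries, Elane had 1 to 4 counts, and Col1a1 had 25 to 50. Members that macrophages can also express were present, such as the dendritic cell marker Itgax (287 and 286 against 313 and 338 CPM, adjusted p = 0.559). The eosinophil receptor gene Ccr3 (33.0 and 31.9 against 54.5 and 56.7 CPM, log2 0.78, adjusted p = 0.00108) and Mmp8 of the neutrophil list differed between the genotypes without reaching 2-fold. The summed level of the neutrophil list was 90.6 and 90.4 CPM in WT and 58.1 and 62.8 CPM in Acod1-/- libraries, and that of the mast cell, basophil and eosinophil list 43.0 and 41.9 against 64.2 and 66.4 CPM. Ccr3 made up most of the latter, and Siglecf, the other tested member, was lower in both knockout libraries (6.74 and 6.65 against 4.52 and 4.59 CPM, log2 -0.55, adjusted p = 0.217). Mmp8 carried most of the fall in the neutrophil sum, at 59.1 and 60.8 against 28.2 and 32.9 CPM of total counts. The other tested members of that list differed less. On the same scale Csf3r had 23.5 and 21.4 against 21.0 and 21.3 CPM, and S100a8 4.73 and 3.88 against 4.11 and 3.73 CPM. The part of these cell types in the other differences was not tested. Transcripts of the Y chromosome gene Ddx3y were present in both genotypes and stood at 110 and 104 CPM in WT and at 103 and 98.3 CPM in Acod1-/- libraries.

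Acod1 itself was near the detection limit. The WT libraries had 69 and 98 raw counts and the Acod1-/- libraries 46 and 44. The groups did not overlap, and the log2 fold change (Acod1-/- minus WT, as throughout) was -0.81 (SE 0.358), but the adjusted p was 0.475 by the quasi-likelihood test of edgeR (Benjamini-Hochberg adjusted), fitted on all 12 libraries. With the spread taken from the 4 vehicle libraries alone, the adjusted p was 0.00407. Because of the filter, neither p-value is read as support for a fall. Reads were assigned to Acod1 in the knockout libraries after PM as well, 3660 and 3271 counts against 6346 and 5908 in WT. These counts are sums over the whole gene. They do not resolve exons and give no check of the deletion. The gene lies at chr14:103046977-103056573 (GRCm38), and none of its exons overlaps another listed gene.

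Between the genotypes, 48 of 10925 genes were called, meaning an adjusted p of 0.05 or less and at least a 2-fold difference, or 0.439% of those tested. They split evenly, 24 genes (0.22%) higher and 24 (0.22%) lower in Acod1-/- BMDMs, and the groups did not overlap for any of the 48. Over all genes tested the groups did not overlap for 6416, or 58.7% (30.4% higher and 28.4% lower in Acod1-/- BMDMs). Without the fold threshold 204 genes (1.87%) passed, 97 higher (0.888%) and 107 lower (0.979%). That number depended strongly on which libraries set the spread. The fit on the 4 vehicle libraries alone called 54 genes at 2-fold (0.494%), among them all 48, but 2272 genes (20.8%) by adjusted p alone, 1146 higher (10.5%) and 1126 lower (10.3%). Of these 2272 all but 54 were under 2-fold, and most genes lie within those limits in the plot of every gene against its level.

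**Figure D1:**
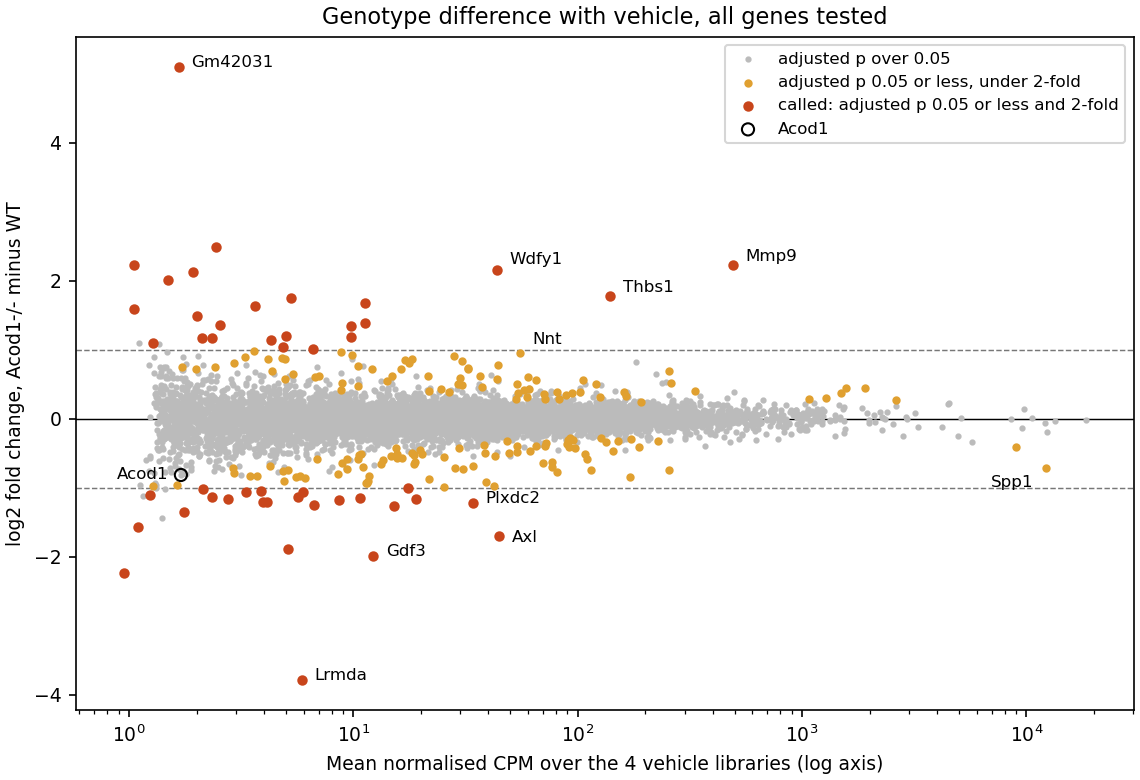
Each point is 1 of 10925 genes, with its mean normalised CPM over the 4 vehicle libraries on a log axis (x) and its log2 fold change, Acod1-/- minus WT (y); dashed lines mark 2-fold, and the open ring marks Acod1. Red points are the 48 called genes, orange points passed the adjusted p without reaching 2-fold, and only Mmp9 and Thbs1 among the called genes had a mean above 100 CPM.

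Several of the called genes encode secreted or surface proteins. Mmp9, the gelatinase that cleaves denatured and type IV collagen, had 181 and 165 CPM in WT and 810 and 818 CPM in Acod1-/- libraries. The knockout libraries were both high, the difference was 4.71-fold (log2 2.23, SE 0.0734, adjusted p = 6.82e-07), and no other gene had a smaller p. Thbs1 (thrombospondin-1, a matrix glycoprotein that binds CD36 and CD47) had 67.0 and 58.9 CPM in WT and 219 and 214 CPM in Acod1-/- libraries, a difference of 1.78 on the log2 scale (SE 0.229, adjusted p = 0.00359). Its call was lost when WT replicate 2 was left out (log2 fold change 1.69, adjusted p = 0.0711).

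Ms4a4a, a tetraspan surface protein of macrophages, rose from 6.15 and 4.56 CPM to 16.4 and 17.7 CPM (log2 1.67, SE 0.185, adjusted p = 0.00173). Gpr34, a receptor for lysophosphatidylserine, rose from 5.64 and 5.42 CPM to 14.2 and 13.8 CPM (log2 1.34, adjusted p = 0.00083). Among genes of lower level, Adamts1, a protease of proteoglycans, rose by 1.63 on the log2 scale and Adam19, a membrane-anchored metalloprotease, by 2.5. Ocstamp, which takes part in the fusion of osteoclast precursors, was at 0.401 and 0.331 CPM in WT and at 1.69 and 1.77 CPM in Acod1-/- libraries (log2 2.23, SE 0.233, adjusted p = 0.00113). These values rest on 15 and 13 raw counts against 62 and 64.

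Inside the cell, Camk2b, the beta subunit of calcium/calmodulin-dependent kinase II, had 2.51 and 2.29 CPM in WT and 8.04 and 8.22 CPM in Acod1-/- libraries (log2 1.76, SE 0.104, adjusted p = 4.28e-05). Rab4a, a small GTPase of recycling endosomes, rose from 5.53 and 6.90 CPM to 16.5 and 16.3 CPM (log2 1.40), and Sult1a1, a phenol sulfotransferase, from 3.29 and 2.78 CPM to 7.31 and 6.67 CPM (log2 1.21). Exons of Sult1a1 overlap those of Sgf29, so reads may be shared. The largest log2 fold change, 5.10 (SE 0.338, adjusted p = 7.61e-05), belonged to the predicted gene Gm42031, which had 4 and 3 raw counts in WT and 112 and 124 in Acod1-/- libraries. The ratio of the summed counts, each divided by the summed scaled library sizes, was 35.5, with a 95% counting interval from 17.0 to 89.3. Gm42031 was above the CPM minimum in the knockout libraries only, so the filter fixed its sign.

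On the lower side, Lrmda, a leucine-rich repeat gene linked to melanocyte differentiation, had the largest fall. It had 10.7 and 11.3 CPM in WT and 0.791 and 0.802 CPM in Acod1-/- libraries, a 13.8-fold difference (log2 -3.78, SE 0.281, adjusted p = 0.000187). Lrmda was above the CPM minimum in WT libraries only, so the filter fixed its sign. Gdf3, a ligand of the TGF-beta superfamily, fell from 20.6 and 18.6 CPM to 4.88 and 4.98 CPM (log2 -1.99, SE 0.11, adjusted p = 3.48e-05). Ccl28, a mucosal chemokine, fell from 1.66 and 1.48 CPM to 0.327 and 0.332 CPM (log2 -2.24, SE 0.258, adjusted p = 0.00207), on 12 raw counts in each knockout library.

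Surface receptors were among the genes that fell. Axl, a receptor tyrosine kinase by which macrophages recognise dying cells through GAS6, had 69.2 and 67.4 CPM in WT and 21.0 and 21.3 CPM in Acod1-/- libraries, a 3.23-fold difference (log2 -1.69, SE 0.106, adjusted p = 5.08e-05). The transmembrane gene Plxdc2 fell from 47.0 and 48.1 CPM to 19.8 and 21.1 CPM (log2 -1.21, adjusted p = 0.000264), and Notch4 from 9.01 and 9.70 CPM to 3.93 and 3.96 CPM (log2 -1.25, adjusted p = 0.00083). Ramp1, the partner subunit of the receptor for calcitonin gene-related peptide, fell by 1.14 on the log2 scale, a call that was lost without WT replicate 2 (adjusted p = 0.107), without Acod1-/- replicate 1 (0.0947) and without Acod1-/- replicate 2 (0.136).

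Cx3cr1, the fractalkine receptor, was the one called of 24 tested members of the macrophage identity list, beside 0.439% of all genes. It had 21.1 and 25.6 CPM in WT and 12.1 and 11.2 CPM in Acod1-/- libraries (log2 -1.01, SE 0.141, adjusted p = 0.00581). With a block for the replicate number in the fit of 12 libraries it was not called. It stood just past the 2-fold limit, and leaving out WT replicate 2 gave -0.86 (adjusted p = 0.0831), leaving out Acod1-/- replicate 1 gave -1.07 (0.07) and leaving out Acod1-/- replicate 2 gave -0.95 (0.103).

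Genes of other functions fell as well. F13a1, the A subunit of coagulation factor XIII, fell from 21.7 and 21.2 CPM to 8.97 and 8.97 CPM (log2 -1.26). Plod2, a collagen lysyl hydroxylase, fell from 13.7 and 15.8 CPM to 7.06 and 6.23 CPM (log2 -1.15). In both the replicates of a genotype lay closer to each other than to either library of the other genotype.

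**Figure D2:**
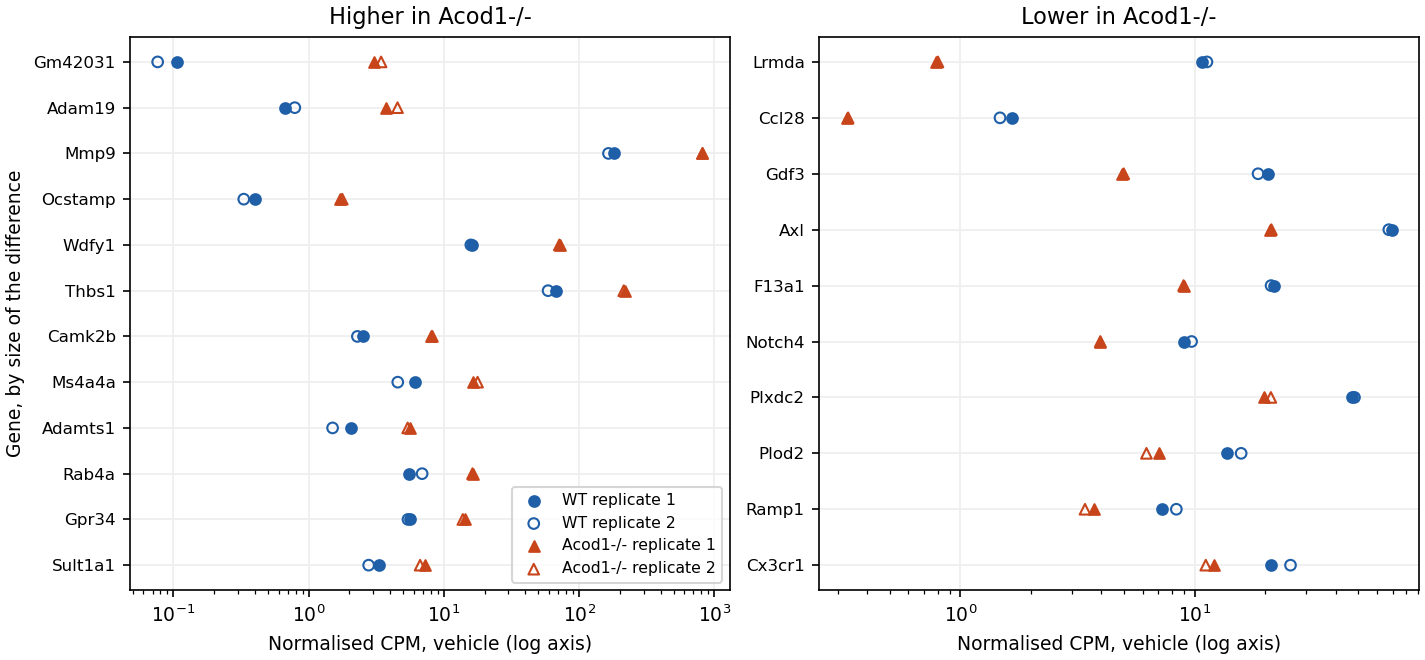
Normalised CPM with vehicle (x, log axis) of the called genes described in the text that were higher (left) or lower (right) in Acod1-/- BMDMs, in order of the size of the difference (y); circles are WT and triangles Acod1-/- libraries, filled for replicate 1 and open for replicate 2. For every gene shown both knockout libraries lie on the same side of both WT libraries, and Mmp9 lies farthest to the right at 810 and 818 CPM.

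Of the 48 called genes, 30 were above the CPM minimum in all 4 libraries. A further 9 genes were above it in no WT library and 5 in no Acod1-/- library. Such genes entered the test only through the genotype in which they were high, so the filter fixed their sign. Gm42031, Ocstamp and Adam19 were among the 9, and Lrmda and Ccl28 among the 5. For such genes the p-values, and the calls in the fits below, are not read as support for a difference. Leaving out each vehicle library in turn gave 33 to 35 calls, and 25 genes (12 higher and 13 lower) were called in all 4 of these fits, including Mmp9, Wdfy1, Ocstamp, Ms4a4a, Camk2b, Lrmda, Gdf3, Axl and Plxdc2. A stricter test, against a log2 fold change of 1 rather than against 0 (glmTreat), called 7 genes: Mmp9, Wdfy1, Camk2b and Gm42031 higher, and Lrmda, Gdf3 and Axl lower. Just under the limit, 12 genes passed the adjusted p within 0.1 of 2-fold on the log2 scale, among them Nnt, Saa3, Mmp8, Flt1 and Rtp4.

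Of 9 listed genes known to differ between substrains of C57BL/6, 4 had 0 counts and 5 were tested. Of these 1 was called and 2 more passed the adjusted p, beside 0.439% and 1.87% of all genes. Nnt encodes the mitochondrial transhydrogenase that makes NADPH, and part of it is deleted in the substrain C57BL/6J but not in C57BL/6N. It had 37.4 and 37.7 CPM in WT and 72.2 and 74.0 CPM in Acod1-/- libraries (log2 0.96, SE 0.0578, adjusted p = 4.28e-05), close to but under 2-fold. Wdfy1, an endosomal adaptor in Toll-like receptor signalling, had 16.3 and 15.8 CPM in WT and 71.7 and 71.4 CPM in Acod1-/- libraries, a 4.46-fold difference (log2 2.16, SE 0.12, adjusted p = 3.48e-05), and its exons overlap those of Mrpl44. Ide, the insulin-degrading enzyme, fell from 128 and 125 CPM to 88.0 and 90.3 CPM (log2 -0.51, adjusted p = 0.0207). Cyfip2, which carries a missense change in C57BL/6N (log2 -0.13, adjusted p = 0.945), and Fgfbp3 (log2 -0.26, adjusted p = 0.721) did not pass. Both libraries of each genotype agreed closely in these genes. The loss of Acod1 and a difference in substrain, if there was one, cannot be told apart in this comparison.

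The called genes were scattered over the genome. The 47 with a position lay on 18 chromosomes, with at most 5 on each. Within 10 Mb of Acod1, 18 genes were tested and 0 called, and their log2 fold changes ran from -0.43 to 0.58 with a median of 0.07. Among the neighbours, Kctd12 (log2 0.07) and Mycbp2 (log2 0.13) both had an adjusted p of 0.992. Lrmda lies on the same chromosome but at chr14:22019712-23056085. Only Mmp9 and Ocstamp among the called genes lay within 1 Mb of each other, 437.91 kb apart on chromosome 2. Between and beside them, Slc12a5 (log2 0.72) and Pltp (log2 0.50) passed the adjusted p without reaching 2-fold.

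The RefSeq promoters (GRCm38.p6, 250 bases before to 50 after the start) are shown for the 4 genes that were called in all 3 pairs of groups, had a mean of 5 CPM or more and an entry, and differed most in each direction. Of the 48 called genes 30 had an entry. Capitals mark a match, on either strand, to any of 6 motifs searched: AP-1 (TGANTCA), STAT (TTCNNNGAA), PU.1 (GAGGAAGT), the NRF2 antioxidant element ARE (TGACNNNGC), the E-box (CACGTG) and the TATA box (TATAAA).
Lrmda promoter, chr14:22019462-22019761, plus strand: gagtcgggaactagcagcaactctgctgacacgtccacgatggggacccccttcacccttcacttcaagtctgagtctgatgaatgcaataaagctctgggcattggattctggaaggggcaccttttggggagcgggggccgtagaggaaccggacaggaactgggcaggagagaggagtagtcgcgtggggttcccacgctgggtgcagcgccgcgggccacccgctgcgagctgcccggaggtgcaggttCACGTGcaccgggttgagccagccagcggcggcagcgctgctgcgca
Axl promoter, chr7:25788684-25788983, minus strand: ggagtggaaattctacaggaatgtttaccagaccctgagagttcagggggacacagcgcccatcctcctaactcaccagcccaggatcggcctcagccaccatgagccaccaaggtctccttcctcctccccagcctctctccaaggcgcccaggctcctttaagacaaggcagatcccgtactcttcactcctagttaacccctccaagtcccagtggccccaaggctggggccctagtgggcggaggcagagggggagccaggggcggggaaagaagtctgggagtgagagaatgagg
Ms4a4a promoter, chr19:11375238-11375537, plus strand: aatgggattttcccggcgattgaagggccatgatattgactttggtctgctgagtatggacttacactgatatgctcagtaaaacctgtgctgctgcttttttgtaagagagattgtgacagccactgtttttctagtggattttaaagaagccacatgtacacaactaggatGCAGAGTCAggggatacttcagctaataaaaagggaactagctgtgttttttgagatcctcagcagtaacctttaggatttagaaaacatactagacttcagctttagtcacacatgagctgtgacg
Camk2b promoter, chr11:6065699-6065998, minus strand: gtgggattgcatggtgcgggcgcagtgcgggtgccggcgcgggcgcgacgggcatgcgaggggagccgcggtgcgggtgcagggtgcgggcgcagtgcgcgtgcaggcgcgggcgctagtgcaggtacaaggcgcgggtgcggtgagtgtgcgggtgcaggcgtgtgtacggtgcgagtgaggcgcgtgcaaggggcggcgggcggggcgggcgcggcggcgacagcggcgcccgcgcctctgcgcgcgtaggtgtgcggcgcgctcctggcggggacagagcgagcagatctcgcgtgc

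The Lrmda window held an E-box, which 8.09% of all 27025 genes with a promoter entry hold, and the Ms4a4a window held a match to the ARE, which 14% hold. The windows of Axl and Camk2b held none of the 6. STAT was in the windows of 9.55% of all genes, PU.1 in 3.69%, AP-1 in 8.97% and the TATA box in 15.7%. A match is a description and not a site.

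The genotype differences were looked for again in the PM and the OI and PM libraries. Replicates differed more there than with vehicle. The WT pair had a chi-square of 27.3 per degree of freedom after PM and 58.5 after OI and PM, against 3.0. The Acod1-/- pair had 8.32 and 4.16, against 2.61. Differences between WT replicates went with exonic length (Spearman rho 0.61 in both, 0.29 with vehicle), those between Acod1-/- replicates less so (-0.36 and 0.30, -0.08 with vehicle). After PM, the difference of all 48 genes had the same sign, 32 were called again, and in 46 the groups did not overlap on the same side. After OI and PM, 47 had the same sign, 26 were called again and 44 did not overlap. Over all 10925 genes the sign was shared by 7774 (71.2%) after PM and by 7297 (66.8%) after OI and PM, the groups did not overlap on the same side for 32.7% and 40.4%, and 54 genes (0.494%) and 75 genes (0.686%) were called there. In all, 24 genes were called in all 3 comparisons, among them Mmp9, Wdfy1, Camk2b, Ms4a4a, Rab4a, Lrmda, Gdf3, Axl, Ccl28, F13a1, Notch4, Plxdc2 and Plod2. Axl had a log2 fold change of -1.69 with vehicle, -1.64 after PM and -1.54 after OI and PM, and Lrmda of -3.78, -3.81 and -3.86.

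Another 14 genes were called with vehicle only. Thbs1 showed the widest gap among those named by level. It had 54.2 and 40.6 CPM in WT and 78.5 and 89.7 CPM in Acod1-/- libraries after PM, and 43.2 and 23.8 against 37.6 and 38.5 CPM after OI and PM, where the groups overlapped. Its log2 fold change went from 1.78 with vehicle to 0.83 after PM (adjusted p = 0.109) and 0.18 after OI and PM (adjusted p = 0.599). Ocstamp stood at 0.549 and -0.13 in the treated pairs, with 0.144 to 0.340 CPM in the 8 treated libraries. Tests of the change itself did not pass the adjustment: for Thbs1 the interaction of genotype with PM had an unadjusted p of 0.0138 and with OI and PM of 0.000631 (adjusted p = 0.9999 and 0.238). Cx3cr1 and Gpr34 were likewise called with vehicle only, and their differences between treatments did not pass. For Gpr34 the log2 fold change was 1.34 with vehicle, 0.85 after PM (adjusted p = 0.0402) and 2.00 after OI and PM (adjusted p = 0.142). The last value lies near the detection limit, at 0.0301 and 0.0337 CPM in WT against 0.181 and 0.0926 CPM in Acod1-/- libraries. For Cx3cr1 the log2 fold changes were -1.01, -0.41 and -0.60. After OI and PM Cx3cr1 was low, at 0.481 and 0.640 against 0.242 and 0.494 CPM, and the groups overlapped. By adjusted p without the fold threshold, 40 of the 48 passed again with the same sign after PM and 35 after OI and PM. Over all 10925 genes 248 and 639 did so.

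Over all genes, the interaction of genotype with PM called 0 by edgeR's quasi-likelihood test, with 264 (2.42%) at an unadjusted p under 0.05, and the interaction with OI and PM called 2 (0.0183%), Mmp8 and Plau, with 878 (8.04%) at an unadjusted p under 0.05. Leaving out any 1 vehicle library left 0 of these calls, and DESeq2 made 10. Mmp8, neutrophil collagenase, had 55.8 and 57 CPM in WT and 26.3 and 31.0 CPM in Acod1-/- libraries with vehicle (log2 -0.98, adjusted p = 0.0011). After OI and PM it had 408 and 340 against 425 and 422 CPM (log2 0.18). Plau, the urokinase protease, was higher in Acod1-/- libraries with vehicle, at 1645 and 1712 CPM against 1230 and 1352 CPM in WT (log2 0.38, adjusted p = 0.0304), and lower after OI and PM, at 324 and 313 CPM against 517 and 504 CPM (log2 -0.68, adjusted p = 0.00126).

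**Figure D3:**
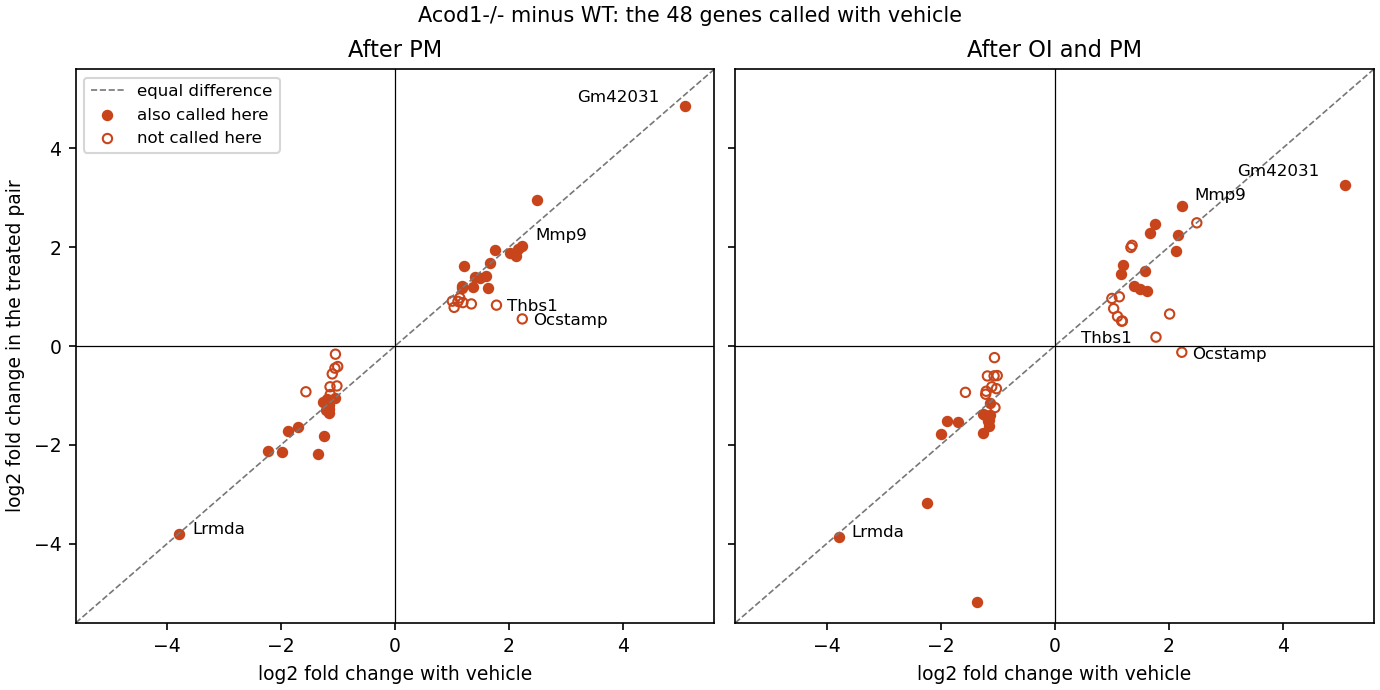
Log2 fold change, Acod1-/- minus WT, of the 48 genes called with vehicle, with vehicle (x) and in the libraries given PM (left) or OI and PM (right) (y); filled points were called again and the dashed line marks an equal difference. All 48 points keep their sign after PM, 47 do so after OI and PM, and Ocstamp and Thbs1 lie well below the line in both panels.

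**Figure D4:**
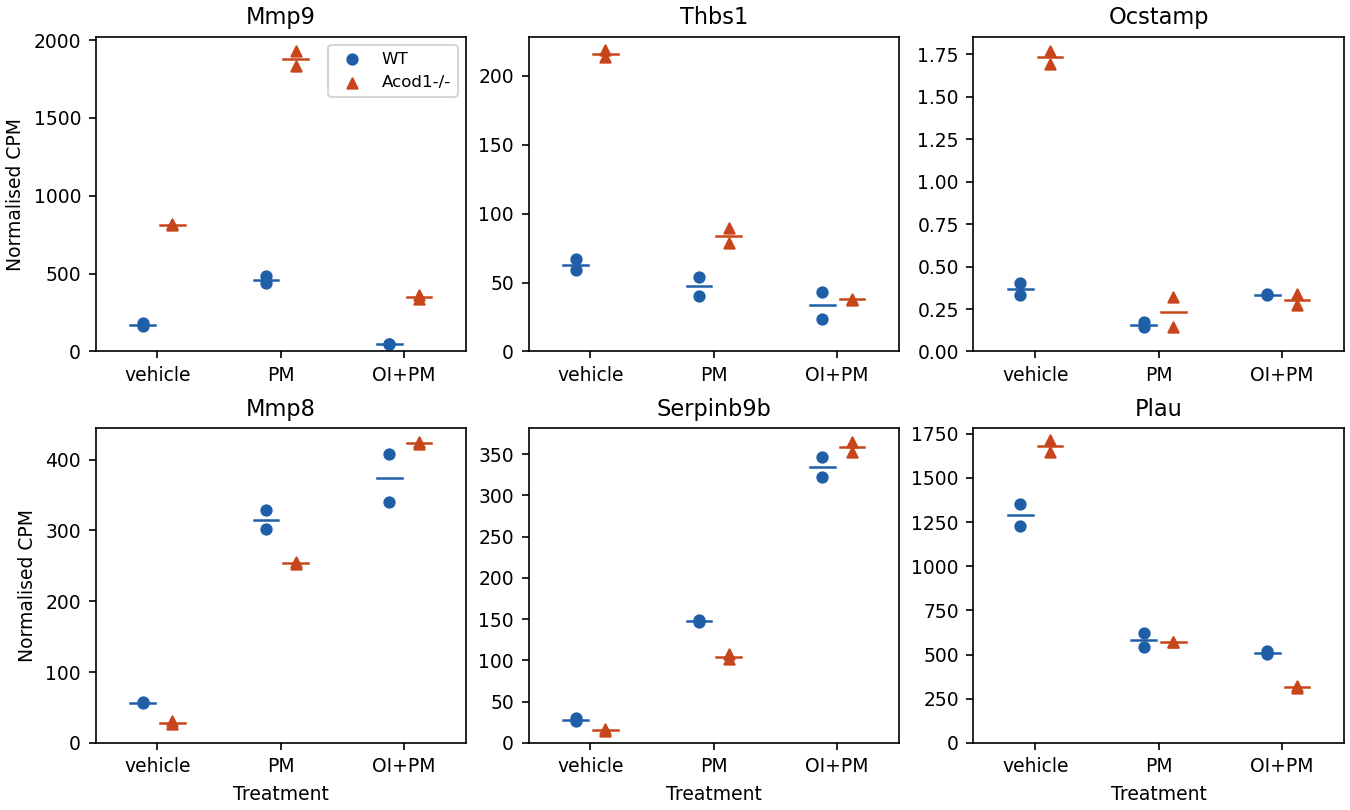
Normalised CPM (y, from 0) of 6 genes in all 12 libraries by treatment (x), with circles for WT, triangles for Acod1-/- and a line at the mean of 2 libraries. Mmp9 is higher in the knockout libraries under each treatment, Thbs1 and Ocstamp differ most with vehicle, and Plau is higher in the knockout libraries with vehicle and lower after OI and PM, whereas Mmp8 and Serpinb9b are lower with vehicle and did not pass the test after OI and PM.

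Gene lists were described by counts and medians, beside a median of 0.00 over all genes tested. Members that passed the adjusted p without reaching 2-fold are named here after their values were seen. All 9 tested osteoclast genes had a positive log2 fold change, with a median of 0.20 that ran from 0.17 to 0.31 with 1 library left out. Over all genes 51.6% were positive, 0.439% were called and 1.87% passed the adjusted p. Mmp9 and Ocstamp were called, Ocstamp being above the CPM minimum in the knockout libraries only, so that its sign was fixed by the filter. Dcstamp, a fusion protein (25.2 and 23.3 against 40.3 and 40.2 CPM, log2 0.73, adjusted p = 0.011), and Acp5, tartrate-resistant acid phosphatase (51.8 and 53.3 against 76.9 and 78.3 CPM, log2 0.56, adjusted p = 0.00893), passed without 2-fold. The other tested members, which include the master regulator Nfatc1 (log2 0.06) and the protease gene Ctsk (log2 0.20), did not pass, and the calcitonin receptor gene Calcr had 0 counts in all 4 libraries.

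All 6 tested genes of the MS4A family, tetraspan membrane proteins clustered on chromosome 19, had positive log2 fold changes, with a median of 0.35. Ms4a4a was called, and Ms4a6b passed without 2-fold (21.7 and 22.1 against 38.1 and 40.5 CPM, log2 0.84, adjusted p = 0.000833). In the same fit 0.439% of all genes were called and 1.87% passed the adjusted p. Ms4a6b shares exon positions with Gm19261. The remaining 4 had log2 fold changes from 0.16 for Ms4a6d to 0.40 for Ms4a6c and did not pass. In the fit on the 4 vehicle libraries alone all 6 passed the adjusted p upward, beside 10.5% of all genes. For all 6 genes both knockout libraries stood above both WT libraries, as for 30.4% of all genes tested.

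In the list of metalloproteinases and inhibitors, which does not hold Adam19 or Adamts1, Mmp9 was the one called of 14 tested members. Of all genes tested 0.439% were called and 1.87% passed the adjusted p. Mmp13, an interstitial collagenase (310 and 326 against 184 and 196.2 CPM, log2 -0.74, adjusted p = 0.000193), and Mmp12, macrophage elastase (log2 -0.41, adjusted p = 0.00863), fell without reaching 2-fold, as did Mmp8. Timp2, an inhibitor of these enzymes, rose (198.7 and 190.8 against 314 and 314 CPM, log2 0.69, adjusted p = 0.0011). Exons of Mmp12 overlap those of Mmp1b.

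Of 49 interferon-stimulated genes 0 were called, by edgeR's quasi-likelihood test, but 44 had a positive log2 fold change and the list's median was 0.20. Of all genes tested 0.439% were called, 1.87% passed the adjusted p and 51.6% were positive. Oasl2 (51.1 and 51.4 against 69.5 and 69.5 CPM, log2 0.44, adjusted p = 0.0472) and Rtp4 (18.3 and 20.5 against 36.4 and 36.7 CPM, log2 0.92, adjusted p = 0.00117) passed the adjusted p. In the fit on the 4 vehicle libraries alone 27 members passed the adjusted p upward and 1 downward, beside 10.5% and 10.3% of all genes. After PM, the difference in Rtp4 was 0.30 on the log2 scale (adjusted p = 0.156), and after OI and PM, at 0.993 and 0.640 against 1.57 and 1.85 CPM, it was 1.05 (adjusted p = 0.0167).

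The itaconate and TCA cycle list showed little. Of 31 tested members 0 were called by the same test and 0 passed the adjusted p alone, and the median log2 fold change was -0.02. Of all genes tested 0.439% were called, 1.87% passed and 48.4% were negative. Of 26 genes of NRF2 and its targets 0 were called, 21 had a negative log2 fold change and the median was -0.08. With 1 library left out this median ran from -0.14 to -0.06. Nqo1, NAD(P)H quinone dehydrogenase, passed without 2-fold (3.72 and 3.46 against 2.26 and 2.13 CPM, log2 -0.71, adjusted p = 0.02), and without any single vehicle library its adjusted p was 0.0972 to 0.21. Hmox1 (log2 -0.20, adjusted p = 0.522), Gclm (-0.14, 0.488) and Nfe2l2, which encodes NRF2 itself (-0.07, 0.889), did not pass. Gclm ran from -0.20 to -0.07 with 1 library left out. By the same test Nqo1 was lower again after PM (log2 -0.53, adjusted p = 0.0116) and after OI and PM (-0.53, 0.00796). Hmox1 was lower after PM (-0.45, adjusted p = 0.0359) and after OI and PM (-0.57, 0.00973), also under 2-fold. Gclm (-0.10 and 0.0008) and Nfe2l2 (-0.04 and -0.08) did not pass there. In the fit on the 4 vehicle libraries alone 12 NRF2 members passed the adjusted p downward and 0 upward, beside 10.3% and 10.5% of all genes.

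The inflammatory cytokine genes Il6, Il1b and Tnf were low in both genotypes. Il6 had 0 and 0 counts in WT and 0 and 1 in Acod1-/- libraries, and Il1b 25 and 33 against 26 and 26, so neither was tested. Tnf was at 12.1 and 12 CPM in WT and at 15.5 and 17.4 CPM in Acod1-/- libraries, a log2 fold change of 0.45 (SE 0.163) that did not pass on 12 libraries (adjusted p = 0.328) and did on 4 (adjusted p = 4.15e-05). Among 17 cytokines Gdf3 was called, and Spp1, osteopontin, fell from 14872 and 15561 CPM to 9050 and 9455 CPM (log2 -0.72, SE 0.103, adjusted p = 0.00658) without reaching 2-fold. Among 15 chemokines Ccl28 was called, a gene above the CPM minimum in WT libraries only. The share called over all genes was 0.439%, and 1.87% passed the adjusted p. Ccl6 was at 1037 and 1033 CPM in WT and at 1223 and 1208 CPM in Acod1-/- libraries. The acute-phase gene Saa3 stood at 2.46 and 2.37 CPM against 4.80 and 4.76 CPM (log2 0.98, adjusted p = 0.00743), just under 2-fold.

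In macrophage identity genes other than Cx3cr1, the F4/80 gene Adgre1 rose from 1350 and 1312 CPM to 1762 and 1873 CPM (log2 0.45, adjusted p = 0.0166). The LXR and PPAR lipid handling list had 0 called of 21 tested, with Scd2 (log2 0.85) and Pltp (0.50) passing upward and Fabp4 (-0.63) and Angptl4 (-0.55) downward. The TAM receptor and efferocytosis list had Thbs1 higher and Axl lower of 17 tested. Cell cycle genes had 0 called of 35, with 29 negative and a median of -0.10, and cholesterol synthesis genes had 0 of 20, with 16 negative and a median of -0.10. Over all genes 0.439% were called, 1.87% passed the adjusted p and 48.4% were negative.

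**Figure D5:**
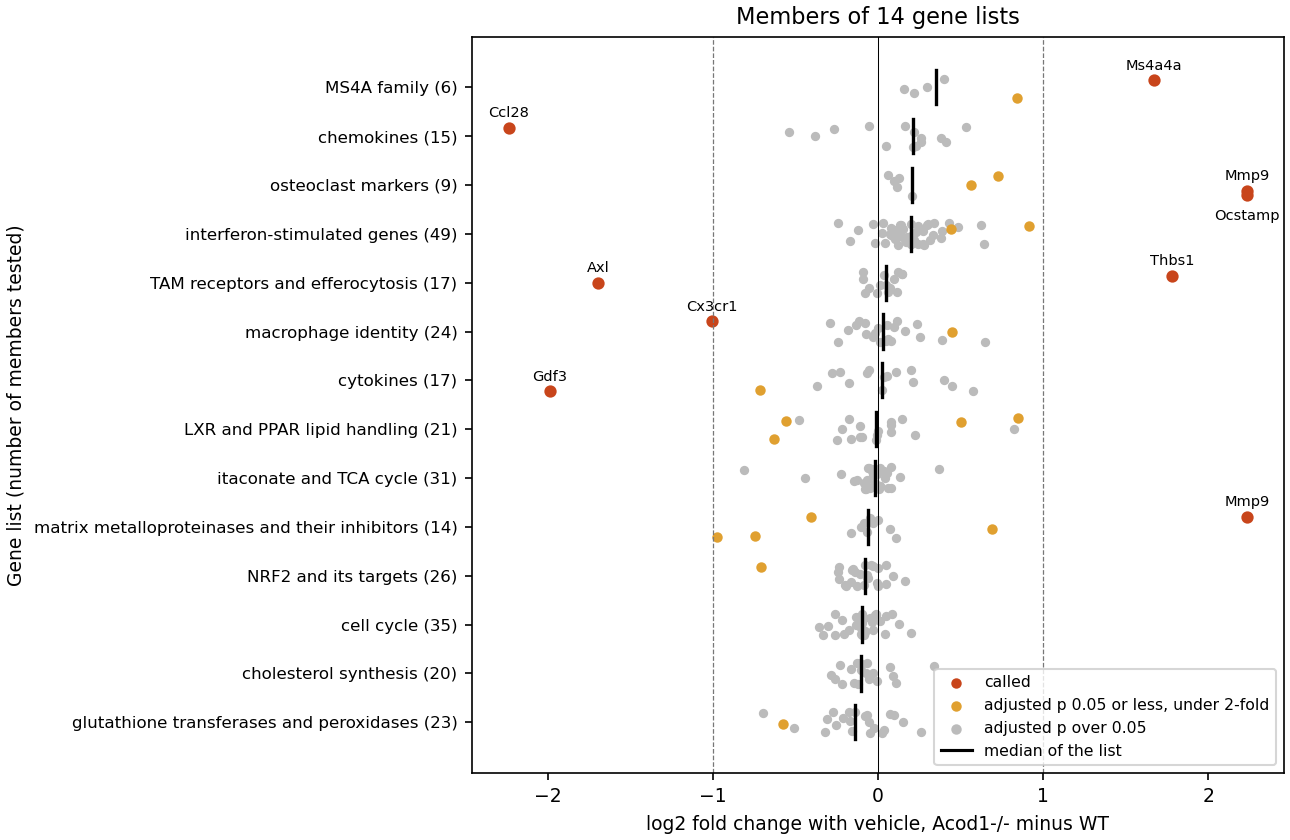
Each point is the log2 fold change with vehicle (x, Acod1-/- minus WT) of a tested member of 1 of 14 gene lists (y), with the list's median as a black bar; red points were called and orange points passed the adjusted p without reaching 2-fold. Most members lie between -0.5 and 0.5, and the MS4A, osteoclast and interferon lists lie mostly to the right of 0.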

How the data were processed

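Raw RNA-seq counts per gene were used as the authors deposited them, 1 file per library, in mouse BMDMs. The submitters' processing notes name FastQC 0.11.5, STAR 2.5.3a, Picard 2.9.0, featureCounts, DESeq2 and the build GRCm38; reads were 50 bases and single-end. Annotation, strand and multimapping settings are not given in the sources used here, so reads of overlapping genes and of near-identical copies may be shared.

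Gene symbols matched 48349 of 48795 identifiers. Counts of all 12 libraries were fitted with edgeR 4.0.16 (R 4.3.3, TMM scaling, 1 mean per group, quasi-likelihood F test, Benjamini-Hochberg adjustment over 10925 genes). CPM values of single genes are on the same scaling, whereas summed levels of gene lists are CPM of total counts without TMM. A fit on 4 libraries, DESeq2 1.42.0, other scalings and filters, a replicate block, a correction for exonic length and each library left out were run as alternatives. Total counts were 33616577 to 36817898 per library. Counting intervals cover counting error only. Scripts were tested on simulated data.

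Genes were named as the study's own markers, the 15 largest changes in each direction at 5 CPM or more, the 6 called genes of smallest p, up to 4 called members and the most abundant uncalled member of each list, the 4 smallest p for the interaction with PM among genes called in any of the 3 genotype comparisons, and neighbours of Acod1; a few of these are not reported here. Other genes, Adam19 and Adamts1 among them, were named after their values were seen. Gene lists were written by hand, and the comparison, its members and the lists were chosen with earlier results of these data known.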

Additional observations from a re-analysis of the deposited data

Results flagged for a closer look

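For 3 genes the difference between the genotypes after OI and PM passed a test against that with vehicle, by the interaction term of edgeR's quasi-likelihood fit with Benjamini-Hochberg adjustment. The genotype difference of Mmp8 was 1.16 higher after OI and PM than with vehicle on the log2 scale (SE 0.138, adjusted p = 0.0359). Serpinb9b, a serpin gene, had 30.1 and 26.3 CPM in WT and 14.8 and 16.2 CPM in Acod1-/- libraries with vehicle. After OI and PM it had 323 and 346 against 364 and 352 CPM, a change in the difference of 0.96 (SE 0.114, adjusted p = 0.0359). For Plau the change was -1.06 (SE 0.102, adjusted p = 0.0167). Without any 1 vehicle library none of the 3 passed (adjusted p = 0.0534 to 0.361), with the sign of each kept. With total count scaling Mmp8 did not pass (1.21, adjusted p = 0.0890), and Plau (-0.998) and Serpinb9b (1.03) did (adjusted p = 0.0195 for both). In the WT libraries with OI and PM the 2 replicates differed most of all groups, with a chi-square of 58.5 per degree of freedom against 3.0 for WT with vehicle. Its part in these interactions was not tested.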

How the results depend on the processing

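All 48 called genes kept their direction under each alternative that tested them, and 18 of them were not tested with the CPM filter in all 4 libraries. RLE scaling called 47 genes, total count scaling 48, DESeq2 50 (12 libraries) and 52 (4 libraries), a filter over all 12 libraries 54, a filter of 10 counts in total 60, the length correction 52 and, added after seeing the data, a fit without the OI and PM libraries 49. With the CPM filter in all 4 libraries 30 genes were called, 13 of them higher, and 35 after PM. The filter of 10 counts gave 120 calls after OI and PM, over more genes tested; the cause was not tested. The test against 2-fold gave 7 calls (4 higher, 3 lower), 10 after PM and 5 after OI and PM. Adjusted p without a fold gave 204 (97 higher, 107 lower), 253 after PM and 717 after OI and PM. On the 4 vehicle libraries alone, a choice added after seeing the data, it gave 2272 (1146 higher, 1126 lower). Acod1, above the CPM minimum in WT libraries only, then passed (log2 -0.82, adjusted p = 0.00407). Leaving out 1 library gave 33 to 35 calls, 15 to 18 higher and 15 to 19 lower, and assumes that the lone library varies like the other groups; 15 higher came without WT replicate 1 and 15 lower without Acod1-/- replicate 1.

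Same-numbered vehicle libraries did not deviate together (correlation -0.05 across genes, 2 pairs). The libraries given PM or OI and PM were not compared in this way. With the replicate block 46 genes were called in the fit of 12 libraries, without Cav1 and Cx3cr1, and 53 in the fit of 4.

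Differences near 0 that were never called changed sign. Aldoa was 0.00037 with the filter over 12 libraries and 0.0076 with the length correction, Srebf2 was 0.00032 with that filter, and Cd36 was 0.0048 with the length correction. With 1 library left out, Aldoa ran from -0.022 to 0.012, Srebf2 from -0.011 to 0.0013, Cd36 from -0.041 to 0.028, Ccnd1 from -0.0068 to 0.033, Uchl3 from -0.0065 to 0.026, Ctsb from -0.034 to 0.00096 and C3ar1 from -0.019 to 0.070.

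The interaction with OI and PM called 2 genes, Mmp8 and Plau. It called 1 with total count scaling, which was Serpinb9b and neither of these, 10 with DESeq2, 0 with the test against 2-fold, 5 with the length correction and 0 without any 1 vehicle library.

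Replicates differed by more than counting error over all genes. Depth limits Gm42031, Ocstamp, Adam19, Lrmda and Ccl28, which rest on few counts in 1 group.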
